A study of Mus musculus with 37 samples.

Results

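Apoe, Abca1, Abcg1, Nr1h3 and Nr1h2 are 5 genes of cholesterol efflux, taken by name from the count tables of a study of mouse macrophages and fibroblasts grown apart or together. The macrophage table held counts for 11965 genes and the fibroblast table for 14028 genes, and both held all 5. Apoe encodes apolipoprotein E, a secreted lipid carrier that accepts cholesterol leaving the cell. Abca1 and Abcg1 encode membrane transporters that pass cholesterol out to such acceptors. Nr1h3 and Nr1h2 encode the liver X receptors LXRα and LXRβ, nuclear receptors that bind oxidised sterols, pair with a retinoid X receptor and switch on efflux genes. In macrophages, Apoe, Abca1, Abcg1 and, in human cells, NR1H3 itself are known targets of these receptors.

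All cells came from BALB/c mice aged 8 weeks. Macrophages were derived from the bone marrow of females with L929-conditioned medium and sorted live as F4/80+ CD11b+ cells. Those grown with mesometrial fat, lung or mammary fat pad fibroblasts were collected on day 7 in 4 libraries per organ, and those without fibroblasts on day 0 in 4 libraries. Because macrophages do not persist in the control medium, no macrophages alone were collected on day 7, so 7 days of culture and the presence of fibroblasts cannot be told apart. Fibroblasts were depleted of EpCAM+ and CD45+ cells, expanded, and sorted live as F4/80- CD11b- cells on day 7. Those grown with macrophages comprised 3 fat, 3 lung and 5 mammary libraries, and those in mono-culture comprised 2 fat, 3 lung and 5 mammary libraries. For fat and mammary fibroblasts, tissue of 2 females was pooled per biological replicate. The third lung mono-culture library carries lung in its title but mammary fat pad in its tissue label. It was kept with lung, and its 4 mesothelial markers summed to 2231 CPM, against 0 to 36.1 CPM in the 10 mammary libraries.

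Counts came from transcript 3′ ends, so levels are compared between samples of 1 gene and not between genes. Library totals ran between 3040103 and 6223115 counts in macrophages and between 3304605 and 7487355 in fibroblasts. CPM means counts scaled to a common library size (TMM), and a gene was called when its p in edgeR's quasi-likelihood F-test, adjusted over all genes of the table, was under 0.05. All 16 macrophage markers on the list used here were counted in every macrophage library and 13 or 14 of 14 fibroblast markers in every fibroblast library. Fibroblast markers summed to 130 to 512 CPM in co-cultured macrophages and to 7.87 to 18.6 CPM at day 0, over the 13 of 14 markers in that table, of which Col6a1 and Pdgfra were at 0 in 3 of the 4 day-0 libraries. Macrophage markers summed to 531 to 3063 CPM in co-cultured fibroblasts and to 36.6 to 761 CPM in mono-cultured ones. Of the adipocyte markers, Adipoq and Pck1 were measured and stayed at or below 1.38 CPM together in every fibroblast library.

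On GRCm38, the build called mm10 that the submitters' processing notes name, GENCODE M21 places Apoe at chr7:19696109-19699188, Abca1 at chr4:53030787-53159895, Nr1h3 at chr2:91184061-91202834 and Nr1h2 at chr7:44549616-44553951, all on the minus strand, and Abcg1 at chr17:31057675-31117988 on the plus strand. No other annotated gene covered the 3′ end of any of the 5, where these reads arise. Nr1h3 shares 6873 bases of its 5′ part with the noncoding gene Gm13783 on the same strand. Promoter windows from RefSeq (GRCm38.p6), 250 bases before to 50 after the start, matched 4 of the 5 genes. The liver X receptor element is a direct repeat with 4 bases between its half-sites. It was searched on both strands in 4 spellings, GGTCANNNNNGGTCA, GGTCANNNNNGGTTA, GGTTANNNNNGGTCA and GGTTANNNNNGGTTA, where the last N stands for the first base of the second 6-base half-site. These windows are shown because Abca1 and Apoe are both known receptor targets and differ here: Abca1 held 1 match, in capitals and on the strand opposite to transcription, and Apoe held none in any of its 3 windows, of which the one at the outermost start is shown. Both windows are shown 5′ to 3′ on the strand of transcription, from the C57BL/6J reference and not from BALB/c.
Abca1, chr4:53159846-53160145, minus strand: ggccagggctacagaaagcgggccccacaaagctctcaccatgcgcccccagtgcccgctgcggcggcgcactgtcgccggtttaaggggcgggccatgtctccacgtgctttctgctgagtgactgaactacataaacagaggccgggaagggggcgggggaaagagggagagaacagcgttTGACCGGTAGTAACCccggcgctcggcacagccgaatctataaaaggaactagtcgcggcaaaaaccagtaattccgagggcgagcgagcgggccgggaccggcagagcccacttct
Apoe, chr7:19699139-19699438, minus strand: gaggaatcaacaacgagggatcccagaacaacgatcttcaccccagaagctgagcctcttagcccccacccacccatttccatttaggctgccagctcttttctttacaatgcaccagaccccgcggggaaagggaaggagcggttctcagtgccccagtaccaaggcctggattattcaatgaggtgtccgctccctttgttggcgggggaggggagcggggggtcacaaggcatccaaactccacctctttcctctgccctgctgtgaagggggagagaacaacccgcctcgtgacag
The match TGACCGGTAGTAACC in Abca1 began 67 bases before the start. A match was present in 70 of 32851 promoter windows of the same length, or 0.213%. The windows of Nr1h3 and Nr1h2 held none.

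Macrophages grown with fibroblasts were compared with day-0 macrophages to see how the efflux genes differed between the 2 states. Apoe rose 4.01- to 4.93-fold with the fibroblasts of each organ, whereas Abcg1 and Nr1h3 fell to between 0.35 and 0.56 of their day-0 level. Abca1 was 2.87- to 4.09-fold higher on average but was not called, and Nr1h2 was not called either. Thus 3 of the 5 genes were called with each organ, 1 higher and 2 lower, against 30.2% of all 10295 genes tested with fat fibroblasts (15.8% higher, 14.4% lower), 27.8% with lung (14.6% higher, 13.2% lower) and 26.1% with mammary (14.4% higher, 11.8% lower). The 3 comparisons share the same 4 day-0 libraries. In bulk RNA, a change in the number of cells of a type cannot be told apart from a change in RNA per cell.

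Apoe, the secreted acceptor, stood at 29329, 34833, 35640 and 37630 CPM in macrophages with fat fibroblasts. With lung fibroblasts its level was 22505, 29715, 30248 and 29179 CPM, and with mammary fibroblasts 20504, 29698, 32132 and 37827 CPM. Day-0 macrophages had 4365, 9606, 5645 and 8252 CPM. Every co-cultured library lay above every day-0 library. Apoe alone took up 2.07 to 3.77% of all counts in a co-cultured library and 0.455 to 0.971% in a day-0 library. The log2 fold change over day 0 was 2.30 ± 0.22 (SE) with fat (adjusted p = 3.525e-07), 2.00 ± 0.22 with lung (adjusted p = 1.837e-06) and 2.11 ± 0.22 with mammary fibroblasts (adjusted p = 1.048e-06). The differences in Apoe CPM over day 0 were 1712%, 948% and 2642% of the Apoe level in the fat, lung and mammary fibroblasts of the same co-cultures, whereas 13 fibroblast markers had medians of 1.26%, 0.794% and 0.903% on the same measure.

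**Figure D1:**
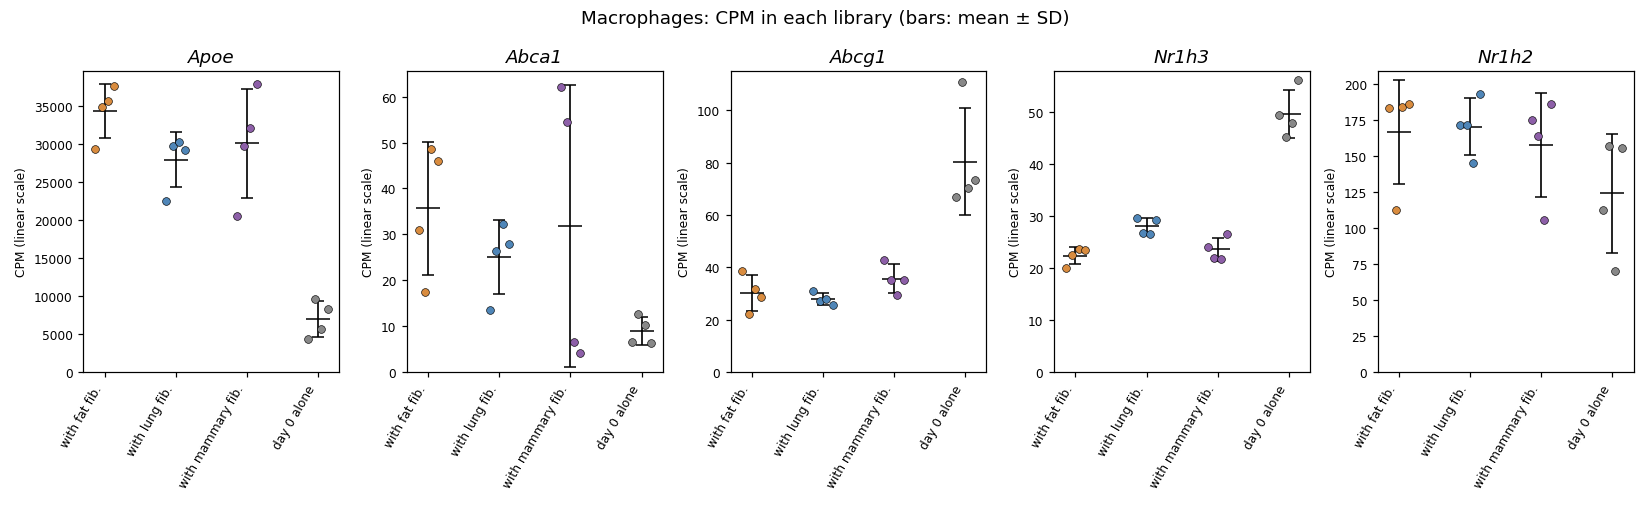
CPM of the 5 genes in each of the 16 macrophage libraries, by culture; each point is 1 library and the bars give mean ± SD (n = 4 per group). Apoe lies at 20504 CPM or more in all co-cultures and at 9606 CPM or less at day 0, Abcg1 and Nr1h3 lie lower in all co-cultures, and Abca1 with mammary fibroblasts splits into 2 high and 2 low libraries.

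Abca1, the transporter that loads lipid-poor apolipoproteins, had 30.9, 17.4, 48.6 and 46 CPM with fat fibroblasts and 13.6, 26.4, 32.3 and 28.0 CPM with lung fibroblasts. Day-0 macrophages had 6.57, 12.7, 10.2 and 6.21 CPM. Neither of these co-cultures overlapped with day 0. With mammary fibroblasts, libraries 1 and 2 had 62.1 and 54.5 CPM, while libraries 3 and 4 had 6.48 and 4.15 CPM, within or below the day-0 range. The marker sums did not follow this split: fibroblast markers summed to 416 and 512 CPM in libraries 1 and 2 and to 436 and 381 CPM in libraries 3 and 4. The log2 fold change was 2.03 (95% interval 0.39 to 3.67, adjusted p = 0.06087) with fat, 1.52 (-0.14 to 3.18, adjusted p = 0.1661) with lung and 1.89 (0.25 to 3.52, adjusted p = 0.08575) with mammary fibroblasts. These calls depended on the setting. Fitting only the groups compared gave an adjusted p of 0.0004954 with fat and 0.001367 with lung, and DESeq2's Wald test gave 0.01948 with fat and 0.03895 with mammary fibroblasts; without mammary library 3 or 4 it was 0.03404 or 0.02046, and without fat library 2 it was 0.04834.

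Abcg1, the transporter that passes cholesterol to mature lipoprotein particles, moved the other way. It had 38.5, 22.0, 31.5 and 28.8 CPM with fat fibroblasts, 31.1, 27.0, 27.9 and 25.8 CPM with lung and 42.8, 35.2, 29.3 and 35.2 CPM with mammary fibroblasts. Day-0 macrophages had 66.8, 111, 70.5 and 73.5 CPM, so the highest co-cultured library lay below the lowest day-0 library. The log2 fold change was -1.40 ± 0.17 (SE) with fat (adjusted p = 3.949e-06), -1.52 ± 0.18 with lung (adjusted p = 1.791e-06) and -1.16 ± 0.17 with mammary fibroblasts (adjusted p = 3.122e-05).

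Nr1h3, encoding LXRα, fell together with Abcg1. Its levels were 20.0, 22.5, 23.7 and 23.4 CPM with fat fibroblasts, 29.6, 26.7, 26.6 and 29.1 CPM with lung, and 24.1, 21.9, 21.7 and 26.5 CPM with mammary fibroblasts. Day-0 libraries had 49.5, 45.3, 47.9 and 56.1 CPM, all above every co-cultured library. The log2 fold change was -1.15 ± 0.12 (SE) with fat (adjusted p = 2.248e-07), -0.83 ± 0.11 with lung (adjusted p = 1.301e-05) and -1.08 ± 0.11 with mammary fibroblasts (adjusted p = 5.162e-07). Nr1h2, encoding LXRβ, averaged 167 ± 35.9 CPM with fat, 170 ± 19.8 CPM with lung and 158 ± 35.9 CPM with mammary fibroblasts, against 124 ± 41.2 CPM at day 0 (SD, n = 4 each). Its groups overlapped and the 95% intervals of the log2 fold change spanned -0.06 to 0.92, -0.03 to 0.95 and -0.14 to 0.84 with fat, lung and mammary fibroblasts.

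The partner organ made no called difference to any of the 5 genes in macrophages, in comparisons that called 3.1% (fat against lung), 2.72% (fat against mammary) and 5.59% (lung against mammary) of all genes. DESeq2 called none of the 5 either. The only unadjusted p-values under 0.05 were for Nr1h3, whose level with fat fibroblasts lay wholly below that with lung fibroblasts (log2 fold change -0.33 ± 0.12 (SE), adjusted p = 0.1856). Its level with lung fibroblasts also lay wholly above that with mammary fibroblasts (log2 fold change 0.25 ± 0.12, adjusted p = 0.2573). For Apoe, the 95% interval of the log2 fold change was -0.14 to 0.74 for fat over lung, -0.25 to 0.64 for fat over mammary and -0.55 to 0.34 for lung over mammary.

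Other genes of the pathway in macrophages were read from 4 lists, chosen with earlier results of these data known. Of 12 known receptor targets tested other than the 5 genes, 6 were higher and 1 lower with fat fibroblasts, 4 and 1 with lung, and 6 and 1 with mammary. Of all genes tested, 30.2%, 27.8% and 26.1% were called in these comparisons (15.8%, 14.6% and 14.4% higher). The median log2 fold changes of the targets were 0.66, 0.46 and 0.72, against -0.01 over all genes in each comparison. Mertk, a receptor for engulfing dead cells, rose to 60.1 ± 5.04, 45.8 ± 9.22 and 50.8 ± 15 CPM with fat, lung and mammary fibroblasts, against 13.9 ± 2.30 CPM at day 0 (n = 4 each, SD, with adjusted p = 9.767e-08, 1.555e-06 and 4.847e-07). Scd2, a fatty acid desaturase, rose to 281, 327 and 376 CPM, against 151 CPM at day 0. Lpl, lipoprotein lipase, fell to 23.9 ± 9.52, 28.9 ± 15.4 and 10.8 ± 2.52 CPM, against 183 ± 61.3 CPM (adjusted p = 6.542e-05, 0.0001494 and 5.706e-06). Arl4c, a small GTPase of cholesterol transport, rose with fat (76.1 CPM) and mammary (74.7 CPM) fibroblasts, against 39.1 CPM at day 0, and was not called with lung (42.6 CPM). Apoc1, which lies beside Apoe and encodes another apolipoprotein, was called higher at 2.95 to 3.17 CPM on average, against 0.36 CPM at day 0, a level of 7 counts in all. Smpdl3a, the most abundant target not called, averaged 550, 475 and 329 CPM, against 381 CPM.

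Among the 12 partners and co-regulators tested, 2 were higher and none lower with fat, 1 and 2 with lung, and 1 and 1 with mammary fibroblasts, where 30.2%, 27.8% and 26.1% of all genes were called in either direction. Their median log2 fold changes were -0.14, -0.27 and -0.09, against -0.01 over all genes in each comparison. Rxra, which encodes the partner of both LXR proteins, rose to 131 ± 13.0, 128 ± 17.4 and 151 ± 18.5 CPM, against 65.4 ± 4.14 CPM at day 0 (n = 4 each, SD, with adjusted p = 2.175e-06, 3.596e-06 and 2.458e-07). The corepressor gene Ncor1 rose with fat fibroblasts (31.7 against 23.9 CPM). The coactivator gene Ncoa1 fell with lung fibroblasts (26.2 against 35.2 CPM). Gps2, a corepressor subunit, fell with mammary fibroblasts (109 against 138 CPM).

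Of 16 genes of sterol movement and oxysterol making, 6, 5 and 4 were higher and 2, 0 and 3 lower with fat, lung and mammary fibroblasts, beside the 30.2%, 27.8% and 26.1% of all genes called. Their median log2 fold changes were 0.21, 0.21 and 0.19, against -0.01 over all genes. Ch25h, whose product makes the oxysterol 25-hydroxycholesterol, rose to 296 ± 77.7, 145 ± 28.0 and 659 ± 166 CPM, against 30.3 ± 10.1 CPM at day 0 (n = 4 each, SD, with adjusted p = 5.086e-08, 3.259e-06 and 2.598e-09). Gramd1b, a carrier of sterol between membranes, rose to 160, 156 and 156 CPM, against 69.8 CPM. Lipa, the lysosomal acid lipase, fell to 564 CPM with mammary and 707 CPM with fat fibroblasts, against 974 CPM, and had 798 CPM with lung, where it was not called. Soat2, which esterifies cholesterol, rose with lung (4.09 CPM) and fat (3.55 CPM) fibroblasts, against 0.89 CPM at day 0. Cyp7b1, an oxysterol hydroxylase, was called higher with fat fibroblasts at 6.32 CPM, against 0.13 CPM at day 0, and its level in the co-cultured fat fibroblasts themselves was 536 CPM; the day-0 value rests on 2 counts. Npc2, a lysosomal carrier of cholesterol, averaged 151, 185 and 167 CPM, against 153 CPM, and was not called.

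Of 8 acceptors and receptors tested, 3 were higher with each organ, and none, 1 and 1 were lower with fat, lung and mammary fibroblasts, again beside 30.2%, 27.8% and 26.1% of all genes. Their median log2 fold changes were 0.04, 0.05 and 0.15, against -0.01 over all genes. Lrpap1, a chaperone of lipoprotein receptors, rose to 88.6, 72.9 and 85.3 CPM, against 50.2 CPM at day 0, and Sorl1, a sorting receptor, to 17.1, 15.4 and 11.5 CPM, against 6.75 CPM. Sort1, another sorting receptor, fell to 36.4 CPM with lung and 31.3 CPM with mammary fibroblasts, against 58.3 CPM. Trem2, a myeloid receptor that binds lipids and Apoe, averaged 2105, 2106 and 2099 CPM, against 1919 CPM, and was not called.

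The genes whose pattern over the 16 macrophage libraries was most like that of Apoe were C1qb (Pearson r = 0.985 of log2(CPM + 0.5)), C1qc (r = 0.982) and Il21r (r = 0.978), out of 5650 genes. C1qb averaged 3776, 3451 and 4013 CPM with fat, lung and mammary fibroblasts, against 451 CPM at day 0. Picalm (r = 0.918) and Ccng2 (r = 0.894) were among the nearest to Abca1. With mammary fibroblasts Picalm, a clathrin adaptor gene, had 292 and 222 CPM in libraries 1 and 2 and 23.5 and 22.0 CPM in libraries 3 and 4, the same split as Abca1. Nearest to Abcg1 were L1cam (r = 0.931), Gadd45b (r = 0.931) and Napsa (r = 0.930), nearest to Nr1h3 were Timeless (r = 0.953), Samhd1 (r = 0.944) and Rnh1 (r = 0.935), and nearest to Nr1h2 were Usf2 (r = 0.916), Aamp (r = 0.898) and Abcf3 (r = 0.897). These r values describe libraries that share 4 culture groups.

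Fibroblasts grown with macrophages were compared with fibroblasts in mono-culture from the same organ. Of the 5 genes, only Apoe in mammary fibroblasts was called, at 4-fold higher in co-culture. Abca1, Nr1h3 and Nr1h2 were called in none of the 3 organs. Abcg1 did not pass the filter on low counts in fibroblasts and is given below by its counts. The share of all 12421 genes called was 3.65% in mammary (2.36% higher, 1.29% lower), 1.31% in lung and 0.201% in fat fibroblasts.

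In mammary fibroblasts, Apoe stood at 1314, 548, 1065, 763 and 677 CPM in libraries 1 to 5 with macrophages. In mono-culture the levels were 431, 96.9, 297, 76.3 and 192 CPM in libraries 1 to 5. The groups did not overlap, and Apoe was higher with macrophages in all 5 pairs of libraries with the same number, 3.05- to 9.99-fold. The log2 fold change was 2.00 ± 0.47 (SE, adjusted p = 0.02199). With a replicate block across organs it was 2.15 (adjusted p = 0.01492) and the number of genes called was 515 instead of 453. With a block within organ, chosen after seeing the data because mammary library numbers paired, it was 2.20 (adjusted p = 0.001146) and 856 genes were called. The call was lost when only these 2 groups were fitted (log2 fold change 2.00, adjusted p = 0.07866) and without co-culture library 1 (1.80, adjusted p = 0.05279), mono-culture library 2 (1.84, adjusted p = 0.05438) or mono-culture library 5 (1.95, adjusted p = 0.05918).

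**Figure D2:**
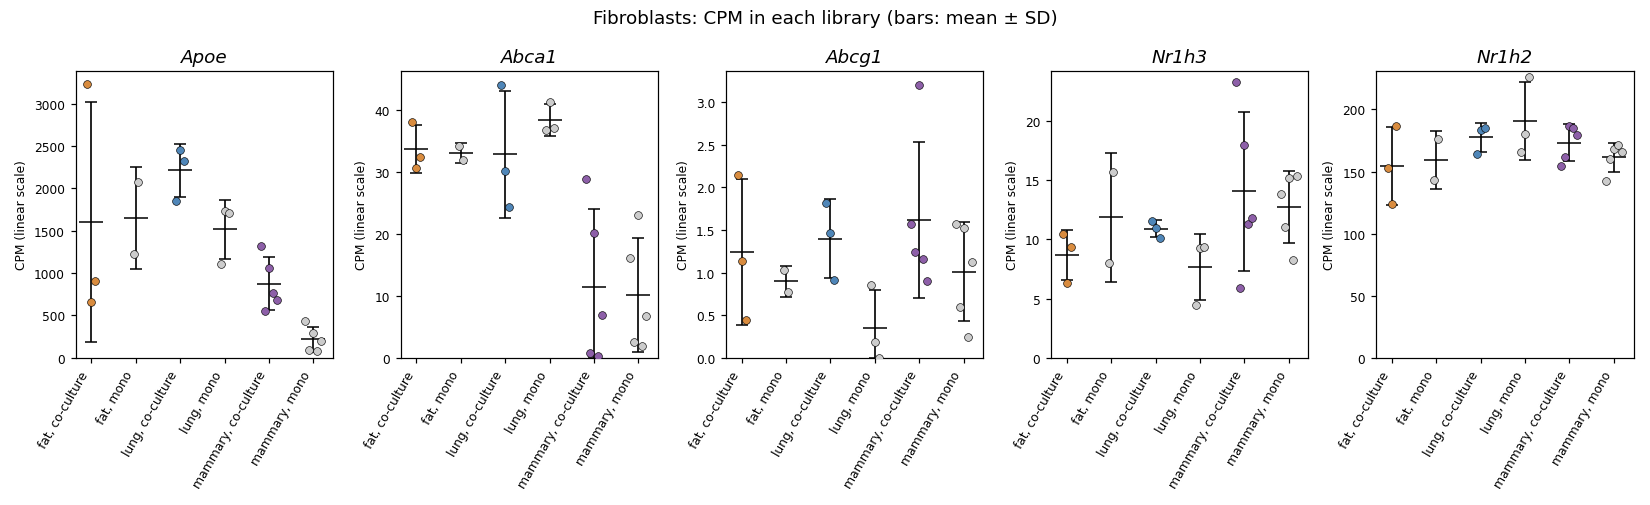
CPM of the 5 genes in each of the 21 fibroblast libraries, by organ and culture; each point is 1 library and the bars give mean ± SD, cut off at 0. Apoe in mammary fibroblasts lies at 548 to 1314 CPM with macrophages and at 76.3 to 431 CPM in mono-culture, and Abca1 in mammary fibroblasts spreads between 0.29 and 28.8 CPM.

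Macrophage markers moved with Apoe in these libraries. The 16 markers summed to 1596, 651, 1982, 842 and 933 CPM in mammary co-culture libraries 1 to 5, and to 604, 44.3, 60.5, 41.6 and 36.6 CPM in mono-culture libraries 1 to 5. Of the 16, between 15 and 16 had a count in each co-culture library, and 16, 9, 14, 11 and 11 in mono-culture libraries 1 to 5. The difference in Apoe between the cultures, 655 CPM, was 2.18% of the Apoe level in macrophages of the same co-cultures, while the 16 macrophage markers ranged between 0.760% and 2.86% on the same measure, with a median of 1.16%. The Apoe value thus lay within the range of the markers. In co-cultured lung fibroblasts the Apoe difference was 2.49% of the macrophage level and the marker median 2.23%, and in fat fibroblasts -0.15% and 1.43%. The 2 tables were scaled separately, so these shares are set side by side only.

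**Figure D3:**
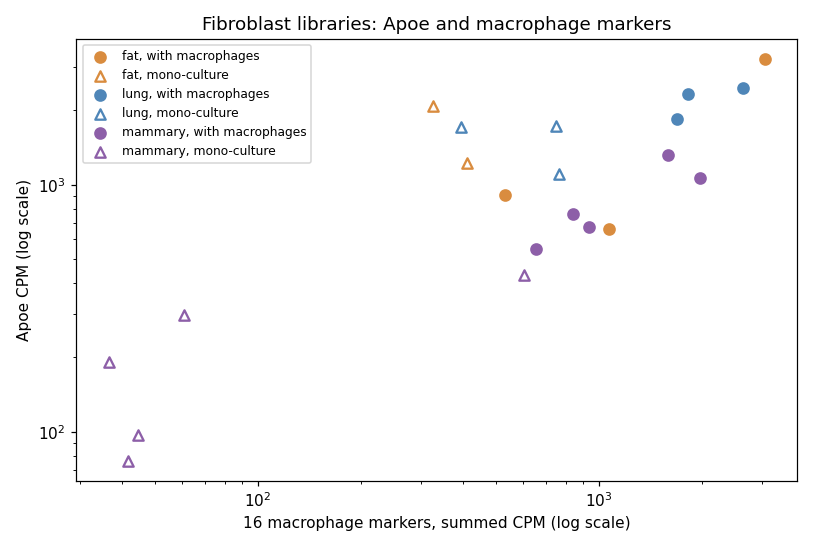
Apoe against the summed CPM of 16 macrophage markers in each of the 21 fibroblast libraries, both on log scales; filled circles are co-cultures, open triangles mono-cultures, and colours give the organ. Mammary mono-culture libraries 2 to 5 lie lowest on both axes, and lung and fat mono-cultures have Apoe levels of 1108 to 2074 CPM at marker sums of 325 to 761 CPM.

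In lung fibroblasts Apoe had 1851, 2453 and 2327 CPM with macrophages, against 1108, 1731 and 1705 CPM in mono-culture. The groups did not overlap, and Apoe was higher with macrophages in all 3 pairs of libraries with the same number, 1.36- to 1.67-fold, but the fit across all fibroblast groups did not call it (log2 fold change 0.55, 95% interval -0.68 to 1.77, adjusted p = 0.9329). Without the mono-culture library whose labels conflict it was 0.64 (adjusted p = 0.978). In fat fibroblasts it had 3228, 661 and 910 CPM with macrophages, against 1228 and 2074 CPM in mono-culture. Fat co-culture library 1 was thus the highest of all fibroblast libraries and libraries 2 and 3 lay below both mono-cultures (log2 fold change -0.05, 95% interval -1.41 to 1.31, adjusted p = 0.9976), and without co-culture library 1 the value was -1.07. Macrophage markers summed to 3063, 1073 and 531 CPM in fat co-culture libraries 1 to 3, against 411 and 325 CPM in fat mono-culture. The response of Apoe did not pass the test of a difference between organs: fat minus mammary was -2.04 ± 0.78 on the log2 scale (SE, adjusted p = 0.5745), lung minus mammary -1.45 ± 0.74 (adjusted p = 0.8319) and fat minus lung -0.59 ± 0.87 (adjusted p = 1). Those comparisons called 0.0242%, 0.0966% and 0% of all genes; for fat minus lung, edgeR called 0 genes, and 813 had an unadjusted p under 0.05.

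Between organs in mono-culture, mammary fibroblasts had the least Apoe. Mono-cultured fat fibroblasts were 7.55-fold above mammary ones (log2 fold change 2.92 ± 0.56, SE, adjusted p = 0.0007426) and lung fibroblasts 6.92-fold above them (2.79 ± 0.52, adjusted p = 0.0002852), in comparisons that called 23.3% and 40.3% of all genes. With a replicate block across organs, fat over mammary was 1.95 (adjusted p = 0.09193) and was not called; the fat mono-culture library with no matching number had a block of its own there, so that value rests on fat mono-culture library 1. Without the lung library whose labels conflict, lung over mammary was 2.70 (adjusted p = 0.001498). Fat and lung mono-cultures differed little (log2 fold change 0.12 ± 0.65, adjusted p = 0.953), in a comparison that called 9.28% of all genes. In co-culture, lung over mammary was 1.34 ± 0.51 (adjusted p = 0.05123), fat over mammary 0.87 ± 0.51 (adjusted p = 0.2242) and fat over lung -0.47 ± 0.58 (adjusted p = 0.6971), with 32.2%, 25.4% and 9.41% of all genes called. Lung over mammary in co-culture was called by DESeq2 (adjusted p = 0.03263) and when only these groups were fitted (adjusted p = 0.01006). Beside the Apoe levels, macrophage markers summed to 325 to 411 CPM in fat and 394 to 761 CPM in lung mono-cultures, above 4 of the 5 mammary mono-cultures, and their part in these differences was not tested. Mesothelial markers summed to 789 to 2231 CPM in fat and lung libraries and to at most 36.1 CPM in mammary ones, and their part was not tested either. From highest to lowest mean, the order was lung co-culture (2210 ± 318 CPM, n = 3), fat mono-culture (1651 ± 598 CPM, n = 2), fat co-culture (1600 ± 1416 CPM, n = 3), lung mono-culture (1515 ± 353 CPM, n = 3), mammary co-culture (873 ± 311 CPM, n = 5) and mammary mono-culture (219 ± 148 CPM, n = 5; SD throughout), and neighbours overlapped except the last 2.

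**Figure D4:**
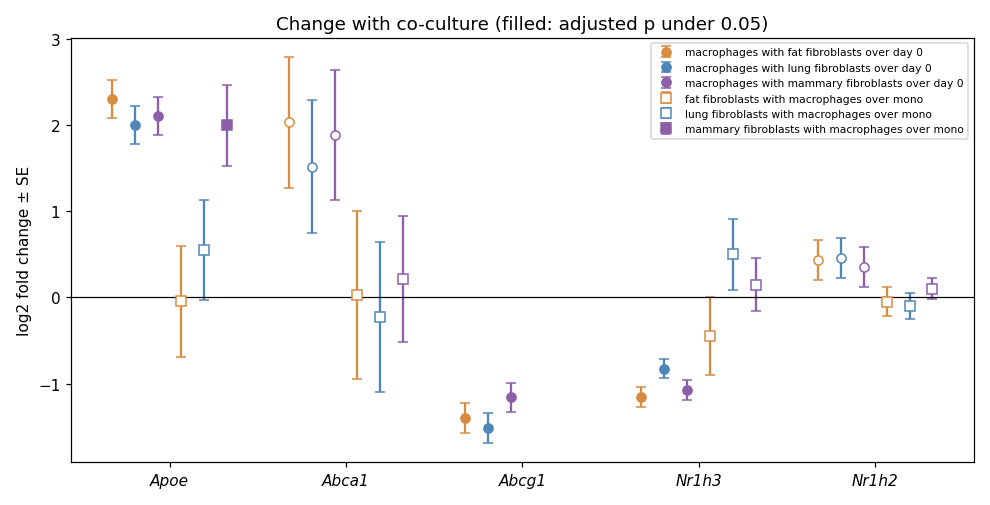
Log2 fold change with its standard error for each gene in macrophages with fibroblasts over day 0 (circles) and fibroblasts with macrophages over mono-culture (squares); filled symbols passed an adjusted p of 0.05. Apoe is filled and near 2 in all macrophage comparisons and in mammary fibroblasts, Abcg1 and Nr1h3 are filled and negative in macrophages, and Abcg1 was not tested in fibroblasts.

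Abca1 was at similar levels in fat and lung fibroblasts, at 38.0, 30.6 and 32.5 CPM in fat co-culture, against 34.2 and 31.9 CPM in fat mono-culture, and at 44.1, 30.1 and 24.3 CPM in lung co-culture, against 36.8, 41.4 and 37.1 CPM in lung mono-culture. Mammary libraries spread far more widely, at 28.8, 0.742, 20.2, 0.291 and 6.95 CPM in co-culture libraries 1 to 5, against 16.1, 2.57, 23.1, 1.94 and 6.77 CPM in mono-culture libraries 1 to 5. Libraries 2 and 4 were lowest and libraries 1 and 3 highest in both cultures. Co-culture libraries 2 and 4 rest on 3 and 1 counts. The log2 fold change with macrophages was 0.21 (95% interval -1.32 to 1.74, adjusted p = 0.9279), and its sign turned to -0.09 with a replicate block within organ, a fit chosen after seeing the data (adjusted p = 0.9001). Mono-cultured mammary fibroblasts had less Abca1 than lung (log2 fold change of lung over mammary 1.92 ± 0.79, SE, adjusted p = 0.059) and fat ones (1.71 ± 0.87, adjusted p = 0.1739), with no overlap but no call. Fitting lung and mammary mono-cultures alone called it (adjusted p = 0.02564), as did leaving out mammary mono-culture library 3 (2.48, adjusted p = 0.02386). In co-culture the same differences were 1.48 ± 0.79 for lung over mammary (adjusted p = 0.1607) and 1.52 ± 0.79 for fat over mammary (adjusted p = 0.1697), and without mammary co-culture library 1 they were 2.25 (adjusted p = 0.03971) and 2.29 (adjusted p = 0.04594).

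This spread ran with a feature of the column names. In the deposited normalised table, mammary libraries 1 and 3 put the culture before the number and libraries 2, 4 and 5 the number before the culture, in both cultures. Within the first form, Abca1 averaged 24.5 CPM with macrophages, against 19.6 CPM in mono-culture (n = 2 each), and Apoe 1189 against 364 CPM. Within the second form, Abca1 averaged 2.66 CPM with macrophages, against 3.76 CPM in mono-culture (n = 3 each), and Apoe 663 against 122 CPM. Apoe was higher with macrophages within both forms with no overlap, and with the form as a term its log2 fold change was 2.15 (adjusted p = 0.002955). With that term, Abca1 in lung over mammary mono-cultures was 0.77 (adjusted p = 0.254) and Apoe in lung over mammary co-cultures 0.66 (adjusted p = 0.3738). In that fit all fat and lung libraries were assigned the first form. These differences between organs therefore set lung against mammary fibroblasts at the level of that form, held by mammary libraries 1 and 3. They cannot show what part of a difference between organs goes with the form. What the 2 forms stand for is not given in the sources used here, and their part in the Abca1 spread was not tested. Over the 21 fibroblast libraries Tmem30a (r = 0.969), Pls3 (r = 0.966) and Ddx5 (r = 0.961) were most like Abca1 out of 6324 genes. Tmem30a had 40.5, 3.21, 30.8, 2.62 and 11.5 CPM in mammary co-culture libraries 1 to 5, against 40.5, 7.32, 43.7, 7.29 and 12 CPM in mono-culture libraries 1 to 5, the same order of high and low libraries.

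**Figure D5:**
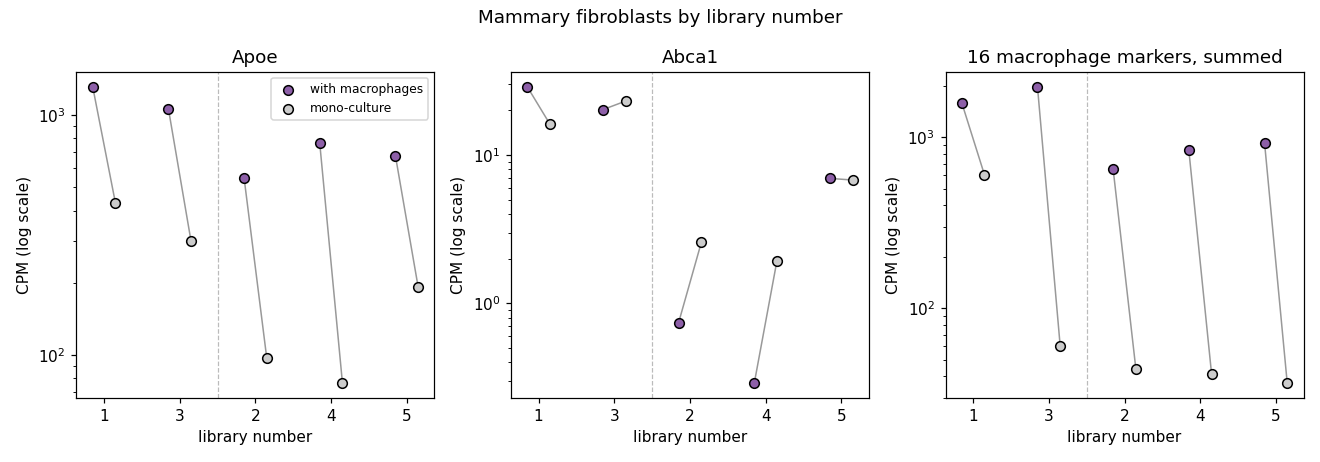
Apoe, Abca1 and the summed CPM of 16 macrophage markers in mammary fibroblast libraries by number, on log scales; purple points are co-cultures, grey points mono-cultures, lines join equal numbers and the dashed line parts the 2 forms of column name. Apoe and the markers lie higher with macrophages at every number, whereas Abca1 is set apart by number (0.291 to 6.95 CPM in libraries 2, 4 and 5, and 16.1 to 28.8 CPM in libraries 1 and 3).

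Abcg1 was near the counting limit in fibroblasts, at 0 to 3.21 CPM and 0 to 10 counts per library, where 3 counts correspond to 0.390 to 0.962 CPM. With macrophages it averaged 1.24 CPM in fat, 1.40 CPM in lung and 1.62 CPM in mammary fibroblasts, against 0.897, 0.347 and 1.01 CPM in the mono-cultures of those organs. Without the filter, the adjusted p was 0.9571 in fat, 0.4156 in lung and 0.6323 in mammary fibroblasts, so a difference was not detectable at this depth. Nr1h3 ranged between 5.93 and 23.3 CPM in co-cultured fibroblasts and between 4.49 and 15.7 CPM in mono-cultured ones, and Nr1h2 between 124 and 187 CPM in co-culture and between 142 and 226 CPM in mono-culture. The 95% interval of the log2 fold change of Nr1h3 was -1.39 to 0.50 in fat, -0.36 to 1.35 in lung and -0.50 to 0.80 in mammary fibroblasts. For Nr1h2 it was -0.40 to 0.31 in fat, -0.42 to 0.22 in lung and -0.15 to 0.35 in mammary fibroblasts. The genes most like Apoe over the fibroblast libraries were Cd68 (r = 0.917), a macrophage marker on the list above, Rab3d (r = 0.912) and Arvcf (r = 0.898), and those most like Nr1h2 were Ypel3 (r = 0.837), Dcaf11 (r = 0.775) and Cog8 (r = 0.753).

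In fibroblasts the 4 pathway lists showed 3 calls over the 3 co-culture comparisons, 1 in lung, 2 in mammary and none in fat fibroblasts. Of all genes tested, 1.31%, 3.65% and 0.201% were called in lung, mammary and fat fibroblasts, so few calls would arise in lists of this size. Ch25h rose in lung fibroblasts to 79.5 ± 7.12 CPM, against 27.4 ± 5.69 CPM in mono-culture (SD, n = 3 each; adjusted p = 0.04325), the 1 call among 18 sterol genes, and Ch25h had 145 CPM in the co-cultured macrophages. In mammary fibroblasts 2 of 12 acceptors and receptors rose. Trem2 rose to 25.8 ± 8.48 CPM, against 3.03 ± 5.32 CPM (SD, n = 5 each; adjusted p = 0.0161), and its level in the co-cultured macrophages was 2099 CPM. Scarb1, a receptor for high-density lipoprotein, rose to 72.6 ± 11.6 CPM, against 50.6 ± 3.23 CPM (SD, n = 5 each; adjusted p = 0.03358). None of the 12 targets or 12 partners tested was called in any organ. Among the abundant genes that were not called, Lrp1, an Apoe receptor, averaged 1565 CPM in mammary co-culture, against 1588 CPM in mono-culture, and Scd2 averaged 945 against 644 CPM.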

How the data were processed

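RNA was measured in 16 macrophage and 21 fibroblast libraries. Reads were aligned with STAR 2.4.2a to mm10, with bcl2fastq and HTSeq also named, per the submitters' processing notes; whether strand or molecular identifiers were used is not stated there or in the labels. The authors deposited raw counts per gene in 1 table per cell type. Every gene in them reached at least 6 counts in some library. All columns were assigned, 1 fat mono-culture column by group only, since its number matched no title.

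Counts were fitted per table with edgeR 4.0.16 in R 4.3.3 (quasi-likelihood F-test, robust, TMM, filterByExpr with minimum count 10, Benjamini-Hochberg), with 1 coefficient per group, leaving 10295 and 12421 genes. Intervals use the test's own degrees of freedom. DESeq2 1.42.0 was an alternative. In simulated counts, 100 genes were changed at each of 2 fold sizes. The macrophage comparison with fat fibroblasts recovered 98% of the 4-fold and 82% of the 2-fold changes, with 10171 genes tested. The mammary fibroblast comparison recovered 97% and 65%, with 12084 genes tested. Only genes above a minimum level were changed and libraries were drawn independently. These shares therefore do not cover genes near the counting limit or libraries that deviate together. They also do not cover fat and lung fibroblasts, which had fewer libraries than mammary ones. In each simulation 9 unchanged genes were called. Mammary fibroblast libraries with equal numbers deviated together (r of 0.29 to 0.56 in 5 pairs). In lung fibroblasts all 3 pairs were most alike with their own number (r of 0.04 to 0.34), but the lowest r missed the cut-off used for pairing. Fat fibroblasts had 1 numbered pair, too few to judge. Macrophage numbers did not pair. Replicates are called repetitions in the labels, so p-values measure the spread between these libraries, and floors cover counting error only. The genes, lists and tests were chosen with earlier results of these data known. Named list genes are up to 3 called genes with the smallest adjusted p per list and comparison and the most abundant gene not called, with their values in the other comparisons, except a few genes not reported here; likeness used genes of at least 20 CPM.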

Additional observations from a re-analysis of the deposited data

Results flagged for a closer look

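Of 30 sets of 4 or 5 libraries examined, 3 held 1 library far from the others; by chance about 1 set in 20 does. Apoe in macrophages with lung fibroblasts was 22505 CPM in library 1, against 29179 to 30248 CPM in the other 3. Nr1h2 in macrophages with fat fibroblasts was 113 CPM in library 2, against 183 to 186 CPM in the other 3. Abcg1 in day-0 macrophages was 111 CPM in library 2, against 66.8 to 73.5 CPM in the other 3. Leaving each of these out did not change the call of its gene.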

How the results depend on the processing

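In macrophages, Apoe, Abcg1 and Nr1h3 kept their direction and call over day 0 under every alternative run. DESeq2's size factors and no filter on low counts changed no call of the 5 genes. Abca1 in macrophages was called by DESeq2 with fat (2.01) and mammary fibroblasts (1.84), and with only the groups compared with fat (2.05) and lung (1.54); leaving out 1 library gave 1.85 to 2.27 with fat and 1.34 to 2.25 with mammary. Log2 fold changes are given throughout.

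Genes called in fat, lung and mammary fibroblasts numbered 25, 163 and 453; DESeq2 gave 141, 311 and 736, only the groups compared 0, 378 and 146, a replicate block within organ 3, 367 and 856, a term for the form of column name 124, 322 and 804, and leaving out 1 library 0 to 7, 60 to 121 and 265 to 484. A replicate block across organs gave 0 in fat. The block within organ and the form term were chosen after seeing the data. In both blocks the fat mono-culture library with no matching number had a block of its own, so fat values there rest on mono-culture library 1. In the block within organ, the fat co-culture libraries other than library 1 had no matched mono-culture either. Fat values from that block therefore compare co-culture library 1 with mono-culture library 1 alone. Apoe in mammary fibroblasts was 2.00 with only the groups compared and 1.80 to 2.398 without 1 library, where 0 to 1 of the 5 genes were called.

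The replicate block across organs ended the call of Apoe in mono-cultured fat over mammary fibroblasts (1.95), leaving 0 of the 5 genes called there. The main fit called 23.3% of all genes in that comparison. Signs turned in results that passed no test. The same block gave 0.65 for Apoe and 0.23 for Nr1h3 in fat fibroblasts and -0.90 for Apoe in mono-cultured fat over lung. The block within organ gave 1.39 (Apoe), 0.38 (Nr1h3) and 0.094 (Nr1h2) in fat and -0.091 (Abca1) in mammary fibroblasts, and the form term -0.037 for Abca1 in mammary. Without 1 library, fat fibroblasts ranged -1.07 to 0.38 (Apoe), -0.066 to 0.093 (Abca1), -0.87 to 0.11 (Nr1h3) and -0.21 to 0.10 (Nr1h2), lung -0.19 to 0.038 (Nr1h2), and mammary -0.56 to 0.77 (Abca1) and -0.13 to 0.35 (Nr1h3). Co-cultured fat over lung ranged -0.14 to 0.31 (Abca1), co-cultured fat over mammary -0.15 to 1.24 (Apoe), and mono-cultured fat over lung -0.31 to 0.46 (Apoe).

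Of the 5 genes, mono-cultured lung over mammary had 2 called with only the groups compared, 2 higher and 0 lower. With the form term it had 2 called, 1 higher and 1 lower, and without 1 library 1 to 2. Co-cultured fat over mammary had 1 with the form term (Nr1h3, lower) and 0 to 1 without 1 library. Co-cultured lung over mammary had 1 by DESeq2 and with only the groups compared, and 0 to 2 without 1 library. In the main fit these comparisons, in the order given, called 40.3%, 25.4% and 32.2% of all genes, and Abcg1 did not pass its filter. Shares of all genes under the other settings are not given here. The form term took all fat and lung libraries as of the first form. The causes were not tested. Depth limited Abcg1 in fibroblasts, with at most 10 counts per library.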
